A study of Mus musculus with 3 samples.

Results

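The shared regions inside gene bodies were 191398 stretches of mouse brain chromatin that had a peak of accessibility in each of 3 libraries and lay within a protein-coding gene, away from its ends. They were found by merging the peaks of the 3 lists wherever peaks overlapped by at least 1 bp, which gave 825954 union regions. A union region was kept when all 3 lists had a peak in it, when its midpoint fell inside a protein-coding gene span of the mm10 gene table, and when its nearest edge was more than 1 kb from every protein-coding gene end. Of the union regions, 322222 had a peak of all 3 lists, and 59.4% of those (95% exact Clopper-Pearson interval 59.2 to 59.6) were shared gene body regions. The regions were chosen by these measured values, the presence of a peak in each list, so their presence is a description and was not tested.

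The libraries came from whole brain of C57BL6 mice and carry the names sciATACv1, sciATACv2 and sciATACv3 (v1, v2 and v3 from here on), with 1 library each. In single-cell combinatorial indexed ATAC-seq the transposase Tn5 cuts open chromatin and leaves a barcode in each nucleus, and here the indexing PCR followed in nanowells. The sources used here do not say what sets the versions apart, how many animals and nuclei went into each, or how old and of which sex the animals were. Each peak list stands for a whole library of mixed brain cell types, so a site open in few nuclei of 1 cell type and a site weakly open in many nuclei cannot be told apart.

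Open chromatin inside a gene has several known sources. Introns of long genes hold enhancers, short stretches that bind transcription factors and act on the promoter of the host gene or of a neighbour. Many genes have further promoters downstream of the outermost one, from which shorter transcripts start, and other genes, among them microRNAs, are nested in introns. In neurons, genes for synaptic adhesion, ion channels and axon guidance are among the longest, and most of their length is intron.

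Annotated promoters are the clearest named elements in these regions, so 6 are shown first. Each sequence is the promoter window of RefSeq on assembly GRCm38.p6 (the build of mm10), from 250 bases before to 50 after an annotated start, written 5′ to 3′ on the strand of the gene. Capitals mark CpG dinucleotides, the sites of DNA methylation, which are dense in the promoters of broadly expressed genes. The windows were chosen after their values were seen, to run from CpG-dense to CpG-poor, from the starts that lay in a shared region.
Runx1, chr16:92697280-92697579, minus strand: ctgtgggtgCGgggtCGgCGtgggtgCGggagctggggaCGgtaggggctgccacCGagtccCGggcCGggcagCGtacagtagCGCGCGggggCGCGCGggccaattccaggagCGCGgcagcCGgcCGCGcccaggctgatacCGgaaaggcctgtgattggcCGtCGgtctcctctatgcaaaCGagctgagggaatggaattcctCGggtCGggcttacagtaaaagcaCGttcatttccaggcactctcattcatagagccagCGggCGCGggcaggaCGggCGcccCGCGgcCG
Foxp1, chr6:99028249-99028548, minus strand: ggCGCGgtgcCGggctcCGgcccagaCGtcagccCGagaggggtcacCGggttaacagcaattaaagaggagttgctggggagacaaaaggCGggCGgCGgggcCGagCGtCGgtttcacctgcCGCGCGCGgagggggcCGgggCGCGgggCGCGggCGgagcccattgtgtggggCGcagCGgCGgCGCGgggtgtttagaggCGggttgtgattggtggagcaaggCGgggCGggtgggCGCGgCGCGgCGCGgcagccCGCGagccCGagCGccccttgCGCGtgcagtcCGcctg
Nrxn3, chr12:89812233-89812532, plus strand: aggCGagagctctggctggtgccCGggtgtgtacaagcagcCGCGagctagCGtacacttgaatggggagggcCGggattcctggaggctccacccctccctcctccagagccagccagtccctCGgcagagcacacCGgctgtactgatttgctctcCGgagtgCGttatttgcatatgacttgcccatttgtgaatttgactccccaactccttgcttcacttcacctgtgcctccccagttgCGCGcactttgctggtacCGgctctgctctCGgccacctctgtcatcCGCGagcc
Dmd, chrX:85048045-85048344, plus strand: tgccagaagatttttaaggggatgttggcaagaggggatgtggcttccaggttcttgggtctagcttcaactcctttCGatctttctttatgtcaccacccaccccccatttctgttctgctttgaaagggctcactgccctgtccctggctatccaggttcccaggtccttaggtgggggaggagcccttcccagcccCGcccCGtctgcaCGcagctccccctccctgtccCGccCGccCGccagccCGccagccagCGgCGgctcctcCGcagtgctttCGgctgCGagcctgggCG
Bdnf, chr2:109692777-109693076, plus strand: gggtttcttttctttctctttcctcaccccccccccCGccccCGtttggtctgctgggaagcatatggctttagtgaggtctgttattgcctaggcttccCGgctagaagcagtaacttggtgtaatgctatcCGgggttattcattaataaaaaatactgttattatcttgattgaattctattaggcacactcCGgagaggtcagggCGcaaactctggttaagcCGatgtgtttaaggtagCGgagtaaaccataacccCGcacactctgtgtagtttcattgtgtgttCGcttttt
Dlg2, chr7:92234720-92235019, plus strand: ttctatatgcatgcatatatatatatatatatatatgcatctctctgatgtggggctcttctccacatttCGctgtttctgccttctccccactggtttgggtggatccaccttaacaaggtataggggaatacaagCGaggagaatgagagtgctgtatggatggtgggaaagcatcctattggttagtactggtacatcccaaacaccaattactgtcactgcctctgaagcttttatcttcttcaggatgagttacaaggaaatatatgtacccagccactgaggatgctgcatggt

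The Runx1 window belongs to a transcription factor of blood cells and microglia and held 35 CpG. A single peak covered its start in every list, 1860 bp wide in v1, 1905 bp in v2 and 2086 bp in v3. The Foxp1 window, in a gene for a forkhead transcription factor of striatal and cortical neurons, held 44 CpG and lay 494 kb downstream of the outer start. The peak over it was 1121 bp wide in v1, 1441 bp in v2 and 2490 bp in v3. Nrxn3 encodes a presynaptic adhesion protein, and neurexin genes are known to make a shorter form from an internal promoter. The Nrxn3 window held 16 CpG, lay 1089.8 kb from the outer start and was under peaks of 2277 bp, 2260 bp and 1726 bp in v1, v2 and v3.

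The Dmd window, on chromosome X in the gene for dystrophin, held 14 CpG and lay 2234 kb from the outer start. Its start was under peaks of 930 bp in v1, 893 bp in v2 and 3978 bp in v3, and the whole region held 4 peaks of v1, 4 of v2 and 2 of v3. The Bdnf window, in the gene for brain-derived neurotrophic factor, held 10 CpG, and its start was under peaks of 2522 bp, 2515 bp and 1917 bp. The Dlg2 window, in the gene for a scaffold protein of the postsynaptic density, held only 2 CpG, with peaks of 939 bp, 2007 bp and 945 bp. All 6 starts were inside a peak of every list, which follows from how they were chosen, and the shares over all starts are given by CpG content further on.

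Inside gene bodies, 422183 union regions were found, and 45.3% of them (45.2 to 45.5) had a peak of all 3 lists. A further 96181 regions, 22.8%, had a peak of 2 lists and 134604, 31.9%, a peak of 1 list. Regions within 1 kb of a gene end were shared in 64.2% of 42080 cases, and regions outside protein-coding genes in 28.7% of 361691 cases, against 39% over all union regions. Gene bodies thus lay between gene ends and the space outside genes. These intervals cover counting error only, and since each version has 1 library the spread between replicates is unknown and no test between versions was made.

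**Figure D1:**
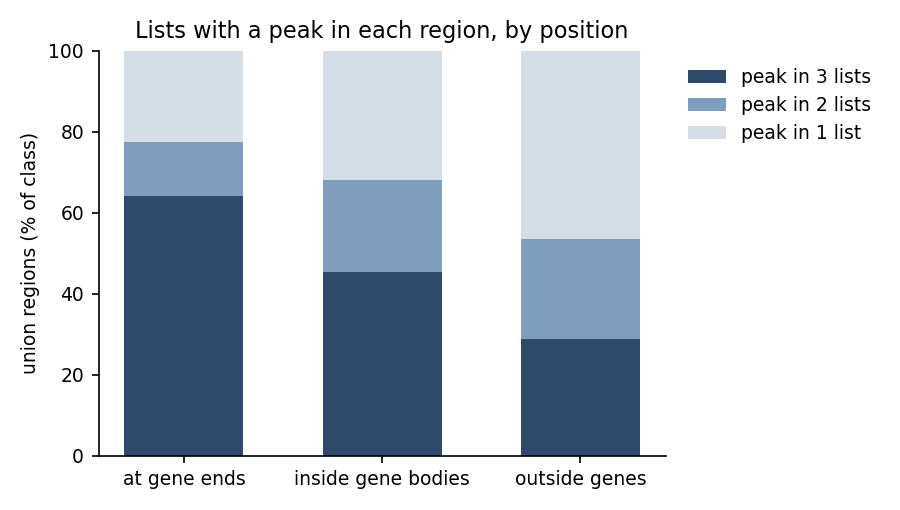
Union regions (% of each class, vertical axis) with a peak in 3, 2 or 1 of the lists, for regions at protein-coding gene ends, inside gene bodies and outside protein-coding genes. The dark part, regions in all 3 lists, is 64.2% at gene ends, 45.3% inside gene bodies and 28.7% outside genes.

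Of the 230785 gene body regions outside the shared set, 163344 lacked a v3 peak, 152124 lacked a v1 peak and 49921 lacked a v2 peak. Gene body regions with a v2 peak alone numbered 90527, or 21.4% of gene body regions, against 29776 (7.05%) with a v3 peak alone and 14301 (3.39%) with a v1 peak alone. Among regions of 2 lists, 58516 had v1 and v2, 31821 had v2 and v3, and 5844 had v1 and v3. Seen from each list, 77.0% of the v1 peaks in gene bodies (270392 of 351348) and 77.3% of those of v3 (233174 of 301823) lay in shared regions, but 59.5% of those of v2 (271375 of 456087). The v2 list was also the longest, with 850991 peaks against 622754 in v1 and 512023 in v3, and the sequencing depth behind each list is unknown, so the part of depth in these shares was not tested.

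The shared regions had a median width of 1360 bp, with quartiles at 890 and 2047 bp. They covered 302 Mb, or 30.7% of the 987 Mb of gene body that lies more than 1 kb from gene ends. Bases under a peak of all 3 lists at once, called the common core here, came to 167 Mb, or 17.0% of that length. The core had a median of 626 bp per region and made up a median of 58.6% of the region. In 1994 regions (1.04%) the lists were joined only by chains of overlaps and no base was in all 3. Regions just outside the distance limit, with the nearest edge 901 to 1000 bp from a gene end, numbered 498 with a median width of 1331.5 bp. Regions just inside it, at 1001 to 1100 bp, numbered 457 with a median width of 1360 bp.

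Within the shared regions the 3 lists drew peaks of different widths. The median peak was 500 bp wide in v1, 775 bp in v2 and 861 bp in v3. The lists hold no peak under 500 bp, and 51.2% of the v1 peaks in these regions had exactly that width, against 37.5% in v2 and 33.3% in v3. Gene body peaks present in 1 list alone were at 500 bp in 92.5% of cases in v1, 79.1% in v2 and 81.2% in v3, so in each library the peaks in shared regions were the wider ones. A wider peak has more chance to overlap a peak of another list, so part of this difference is built into the rule. Shared regions at gene ends had the widest peaks, with medians of 839, 979 and 1313 bp in v1, v2 and v3. Shared regions outside genes had medians of 500, 770 and 835 bp, close to those inside gene bodies.

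**Figure D2:**
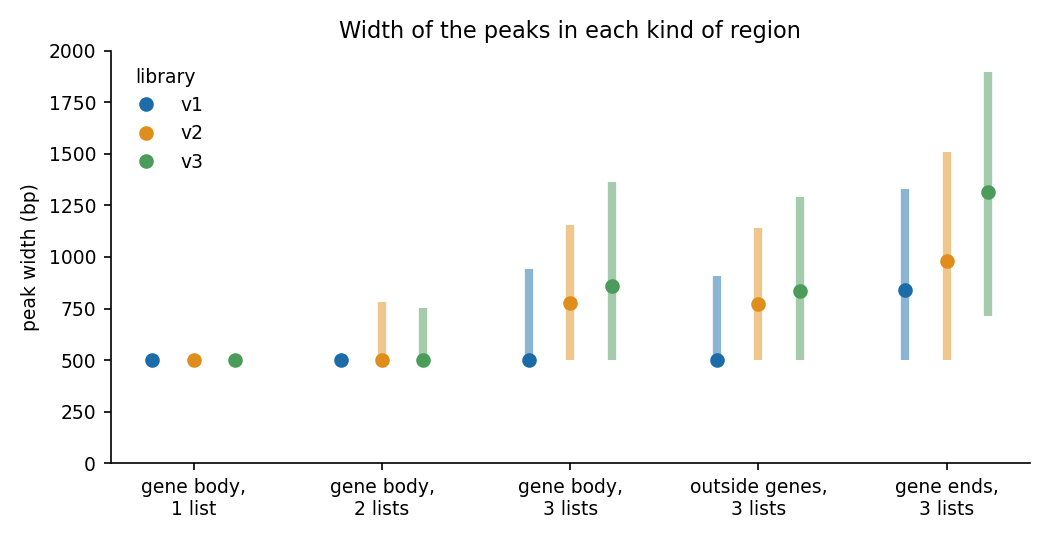
Width of the peaks (bp, vertical axis) in 5 kinds of region, as the median (point) and the lower to upper quartile (bar) over the peaks of v1, v2 and v3. Medians are at 500 bp in every library for gene body regions of 1 or 2 lists and reach 500, 775 and 861 bp in shared gene body regions and 839, 979 and 1313 bp at shared gene ends.

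How closely the lists placed the same site was read from the 105703 shared regions (55.2%) that held exactly 1 peak of each list. The midpoints of the v1 and v2 peaks lay a median of 44 bp apart, those of v1 and v3 76 bp and those of v2 and v3 87 bp. Distances over 250 bp occurred in 9.78%, 14.6% and 16.7% of these regions. The peaks of v1 and v2 were thus placed closest. In 24829 of these regions (23.5%) all 3 peaks had the minimum width, and in 34568 (32.7%) none had.

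Annotated starts were a feature that the rule did not use. The RefSeq promoter table used here, which holds no window on chromosome 18, gave 3881 starts of protein-coding transcripts inside the gene bodies considered, more than 1 kb from every gene end, and 2171 of them, 55.9% (54.4 to 57.5), lay in a shared region. A peak of all 3 lists covered the start itself in 1965 cases, 50.6% (49.0 to 52.2), while 17.0% of the gene body bases were under a peak of all 3 lists within shared regions. Another 700 starts lay in a region that reached a gene end, and 721 starts, 18.6%, lay in no region of any list. The 2171 starts belonged to 1613 genes and lay in 1868 shared regions, so 0.976% of all shared regions, and 1.012% of the 184627 on the chromosomes of the table, held such a start. Those regions had a median width of 2107 bp and a median core of 1419 bp, against 1360 bp and 626 bp over all shared regions. A wider region has more chance to hold a start, so part of this difference is built in.

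Of 2790 starts of long non-coding RNAs in the same gene bodies, 1266 or 45.4% (43.5 to 47.2) lay in a shared region. A peak of all 3 lists covered 905 of them, 32.4%, and 31.3% were in no region. They were also poorer in CpG, with a median of 4 CpG per window against 8 for protein-coding starts. The share in a shared region moved with CpG in both kinds. Of protein-coding starts with 0 to 4 CpG in the window, 39.9% lay in a shared region and 41.8% in no region. With 5 to 9 CpG the shares were 58.0% and 20.5%, with 10 to 19 CpG 67.6% and 2.97%, and with 20 or more 64.7% and 0.591%. The dip in the last class went with more starts in regions that reached a gene end, 34.3% against 26.7% in the class before it.

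**Figure D3:**
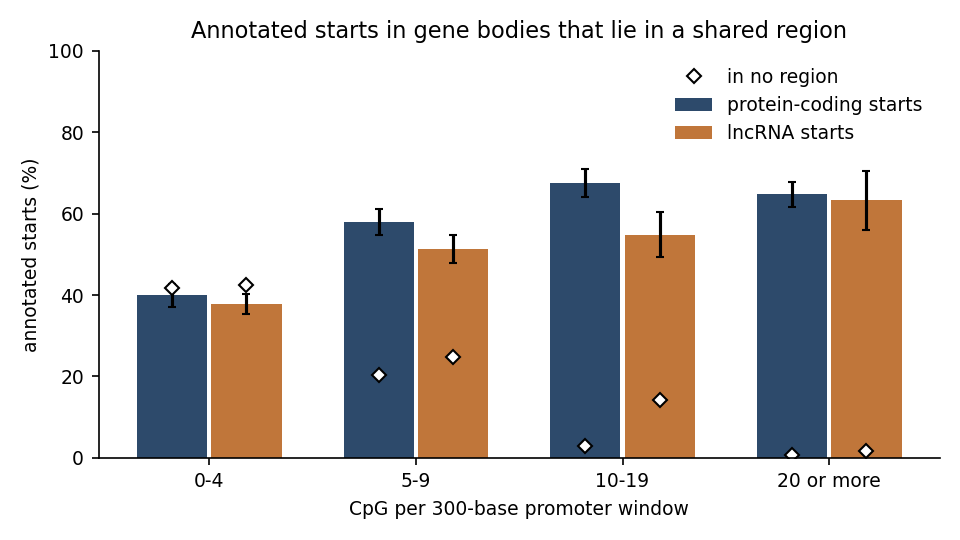
Annotated starts inside gene bodies (%, vertical axis) that lie in a shared region (bars, with 95% exact Clopper-Pearson intervals) or in no region of any list (diamonds), by the number of CpG in the promoter window, for protein-coding and long non-coding RNA transcripts. Protein-coding starts in no region fall from 41.8% at 0 to 4 CpG to 0.591% at 20 or more.

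Short motifs were searched on both strands in the windows of the 2171 protein-coding starts in shared regions, the 721 starts in no region and all 32619 windows of the promoter table. Matches of different motifs may share bases, and a match is only a run of letters. The GC box GGGCGG was in 45.1% of the windows in shared regions, 8.18% of those in no region and 35.9% of all windows. The TATA box TATAAA went the other way, with 8.01%, 22.3% and 13.7%. The ETS core CCGGAA was in 13.8%, 6.10% and 15.0%, and the CRE core TGACGT (the core of a cyclic AMP response element) in 7.23%, 3.61% and 7.56%. The E-box CAGCTG, bound by proneural factors among others, which reads the same on both strands, was in 19.5%, 15.1% and 16.4%, and the core TTGGCA of nuclear factor I (NFI) sites in 13.5%, 15.1% and 14.1%. The GC box itself holds a CpG, and the windows in no region had a median of 3 CpG against 11 in shared regions. Of the 6 windows printed, those of Foxp1, Dmd and Bdnf held a GC box, that of Foxp1 also a CRE core, that of Runx1 an ETS core and that of Dmd an NFI core, and those of Nrxn3 and Dlg2 held none of the 6 motifs.

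Some genes had many such starts. Arpp21, which encodes a phosphoprotein regulated by cyclic AMP, had 9 annotated starts in 4 shared regions. Bdnf had 6 of its 7 annotated starts in 4 shared regions, each under a peak of all 3 lists, and a single region 3363 bp wide held 3 of them, including the one printed. The outermost Bdnf start, with 11 CpG, lay within 1 kb of a gene end, where the rule allows no shared region. It was in no region of any list. Bdnf is known for a row of alternative promoters that splice to 1 coding exon.

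MicroRNAs nested in genes were a further kind of named element. Of 559 hairpins inside the gene bodies considered, 211 or 37.7% (33.7 to 41.9) lay whole in a shared region, and 133 of them (23.8% of the 559) were whole within a peak of every list. The microRNA table covers the same chromosomes as the promoter table, on which shared regions held 30.5% of the eligible bases, and 16.9% of those bases were under a peak of all 3 lists. No region of any list touched 193 hairpins, 34.5%. The mature sequences below come from RefSeq and belong to microRNAs known in brain or conserved with their host gene. They were chosen after their positions were seen, from hairpins in shared regions. Hairpins outside shared regions, such as Mir26b in Ctdsp1, which no region touched, are not shown. Capitals mark the seed, bases 2 to 8, with which a microRNA pairs to its targets.
miR-103-3p: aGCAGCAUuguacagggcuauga
miR-107-3p: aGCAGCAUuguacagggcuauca
miR-128-3p: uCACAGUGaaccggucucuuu
miR-26a-5p: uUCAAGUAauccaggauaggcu
miR-338-3p: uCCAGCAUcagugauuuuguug
miR-138-5p: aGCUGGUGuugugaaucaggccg
miR-153-3p: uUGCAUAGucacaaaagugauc
let-7g-5p: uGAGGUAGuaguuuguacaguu
miR-33-5p: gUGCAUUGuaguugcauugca

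The microRNAs miR-103-3p and miR-107-3p share the seed GCAGCAU and sit in the pantothenate kinase genes, which encode an enzyme of coenzyme A synthesis. The hairpin Mir103-1 lay in a shared region of Pank3 under peaks of 1230 bp in v1, 1231 bp in v2 and 696 bp in v3, Mir103-2 in one of Pank2 under peaks of 880, 840 and 693 bp, and Mir107 in one of Pank1 under peaks of 500, 1144 and 500 bp. The sequence of miR-128-3p, a microRNA abundant in neurons, is made from hairpins in 2 genes. In Arpp21 the hairpin Mir128-2 was under peaks of 2042, 4678 and 3774 bp, within a shared region 4689 bp wide with a core of 3606 bp. In R3hdm1 the hairpin Mir128-1 was under peaks of 1259 bp in v1 and 500 bp in v3, but no v2 peak reached it although v2 had a peak elsewhere in the region.

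The microRNA miR-26a-5p also has 2 hosts, both genes for small phosphatases of the RNA polymerase tail. Mir26a-2 in Ctdsp2 was under peaks of 500, 715 and 1258 bp, whereas Mir26a-1 in Ctdspl was under peaks of 1212 bp in v2 and 1353 bp in v3 and under none in v1. For the others 1 hairpin each is described. Mir338, the hairpin of the myelin-cell microRNA miR-338-3p, lay in Aatk under peaks of 988, 814 and 500 bp. Mir138-2 in Nup93 was under peaks of 694, 923 and 1135 bp, Mir153 in Ptprn2 under peaks of 844, 1112 and 1075 bp, and Mirlet7g in Wdr82 under peaks of 1258, 1275 and 642 bp. Mir33 in Srebf2, a gene for a regulator of cholesterol synthesis, was under peaks of 3705 bp in v2 and 500 bp in v3 and under none in v1. A shared region therefore did not always mean 3 peaks over the same element.

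Shared regions were spread over many genes. Of 4729 protein-coding genes with at least 50 kb of body beyond 1 kb from gene ends, 4597 or 97.2% held a shared region, with a median of 21 per gene. Their density had a median of 21.7 per 100 kb, quartiles at 11.2 and 29.0, and a maximum of 54.3. The 10 genes with the most held 2.66% of all shared regions, the top 100 held 13.4% and the top 1000 held 49.2%. Short bodies had lower densities, 7.36 per 100 kb pooled over genes with up to 10 kb and 13.6 for 10 to 20 kb, against 20.2 to 21.3 from 50 to 500 kb and 19.6 above 500 kb.

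The genes with the most shared regions were long genes, most of them for proteins of synapses and axons. Ptprd, a receptor phosphatase that organises synapses, held 783 (908 gene body regions with a v1 peak, 1111 with a v2 peak and 1058 with a v3 peak), or 34.5 per 100 kb. Csmd1, a large membrane protein gene linked to complement control, held 556, Dlg2 553 and the cell adhesion gene Lsamp 553. Nrxn3 held 493, the splicing regulator Rbfox1 488, the axon guidance receptor Robo2 462, the potassium channel partner Dpp10 409 and the synaptic adhesion gene Cadm2 388. Per 100 kb, Cadm2 with 40.3 stood above the upper quartile of all genes, while Lsamp had 25.2, with its 553 regions spread over 2191 kb of eligible body.

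The genes with the most shared regions per 100 kb were shorter. Usp15, a deubiquitinating enzyme gene, held 49 shared regions in 90.3 kb (51, 56 and 55 gene body regions with a peak of v1, v2 and v3), or 54.3 per 100 kb. Wac held 53.3 per 100 kb, the kinesin gene Kif2a 50.5, the kinase gene Dyrk1a 50.2 and the exocytosis regulator Stxbp5 48.7. At the other end, 132 genes of at least 50 kb, 2.79%, held none. Skint5 and Skint6, members of a family expressed in skin and thymus, were the longest of these with 519.6 and 480.4 kb of eligible body. Skint5 had 5 regions with a v1 peak, 1 with a v2 peak and none with a v3 peak, Skint6 had 5, 0 and 0, and Gm4724 had no region in any list. Why these genes held no shared region was not tested.

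Among 4688 genes of at least 50 kb with a region in the lists, v3 alone had the fewest regions in 2261 (48.2%), v1 alone in 2027 (43.2%) and v2 alone in 37 (0.789%). The list with the fewest regions, which the shared set of a gene cannot exceed, was therefore v1 or v3 in most genes. Which of them it was varied between genes. Erbb4, the neuregulin receptor of interneurons, had 406 regions with a v1 peak, 373 with a v2 peak and 204 with a v3 peak, and 143 of its 491 gene body regions (29.1%) were shared. Gpc5, a glypican gene of astrocytes, had 292, 478 and 152 regions and 89 shared (16.5%), and St18, a zinc finger gene of oligodendrocytes, had 107, 95 and 26 regions and 22 shared (15.9%).

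Other genes had more even counts. Grin2b, an NMDA receptor subunit gene of excitatory neurons, had 192, 224 and 203 regions with a peak of v1, v2 and v3, and 171 of 246 (69.5%) were shared. Cadm2 had 432, 459 and 472 regions and 72.7% shared. The microglial Runx1 was lowest in v1, with 35, 42 and 54 regions and 26 shared (39.4%). Cltc, the clathrin heavy chain gene used by all cells, had 30, 36 and 33 regions and 28 shared (75.7%). With 1 library a version, a gap such as that of Erbb4 cannot be told apart from a difference between the brains or nuclei sampled.

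Gene lists for cell types and functions were read against all 12831 protein-coding genes with at least 10 kb of body beyond 1 kb from gene ends, whose median was 17.2 shared regions per 100 kb. Genes of excitatory neurons had a median of 31.3, with 9 of 10 above the median of all genes. Oligodendrocyte genes had 28.2 (7 of 11 above), genes of striatal neurons 23.0 (5 of 8), astrocyte genes 20.4 (5 of 9), microglial genes 19.7 (6 of 10), genes of inhibitory neurons 18.3 (6 of 7) and of cerebellar neurons 17.8 (4 of 8). The microglial, inhibitory and cerebellar lists fell below the median of all genes, itself 19.7 then, when only regions over 5 kb from gene ends were counted, with 17.1, 19.2 and 16.3. The microglial and inhibitory lists also did so with only peaks wider than 500 bp, at 6.91 and 7.53 against 7.66. Genes of oligodendrocyte precursors had 12.2 (3 of 8), of mural cells and fibroblasts 10.4 (3 of 9), of endothelial cells 8.47 (0 of 10) and of ependymal and choroid plexus cells 6.35 (0 of 6). By median, markers of excitatory neurons and oligodendrocytes thus lay highest among the brain lists. Those of inhibitory and cerebellar neurons lay close to the median of all genes, and those of vessel walls and ventricle lining below it. Pooled over each list, only the excitatory (27.9) and striatal (22.9) lists of brain cell types stood above the 19.3 of all genes. Oligodendrocyte genes had 15.0 pooled, and 35.1% of their gene body regions were shared, against 45.3% over all genes. With only peaks wider than 500 bp their median was 8.06 against 7.66.

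Markers of tissues other than brain were also below the median of all genes. Skeletal muscle genes had a median of 9.50 (1 of 8 above), lymphocyte genes 7.07 (2 of 7), hepatocyte genes 1.56 (0 of 6) and erythroid genes 0 (1 of 7). The endothelial and ependymal lists lay as low as those of muscle and lymphocytes, so the lists as a whole did not separate brain from other tissues. The 2 lymphocyte genes above the median included Bcl11b, with 31.6 per 100 kb, which is also a transcription factor gene of cortical and striatal neurons and stands in the excitatory list too. The erythroid exception was Ank1, with 22.5 per 100 kb, an ankyrin gene also known in brain. Over all genes, short bodies had lower densities. The median eligible body was 26.3 kb for the hepatocyte genes, 17.0 kb for the erythroid genes and 148 kb for the endothelial genes, against 34.5 kb for all genes. The oligodendrocyte and housekeeping lists also had short bodies, 21.5 and 24.3 kb, but medians of 28.2 and 26.5 per 100 kb. The part of body length in the list values was not tested.

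Functional groups of neuronal genes lay above the median of all genes, here and under the 6 alternatives run for the lists. Ion channel genes had a median of 28.9, with 15 of 15 above, and 57.2% of their gene body regions were shared. The lowest ion channel gene was the sodium channel gene Scn1a, with 36 shared regions or 21.4 per 100 kb, and the most shared regions were in Kcnip4, a potassium channel partner, with 301. Glutamate receptor genes had 28.8 (15 of 19 above), led in number by the metabotropic receptor Grm7 with 284 and the kainate receptor subunit Grik2 with 239. Synaptic adhesion genes had 27.6 (17 of 20), axon guidance genes 26.7 (14 of 18) and neural transcription factors 23.5 (15 of 23). These groups hold long genes. The median eligible body was 447 kb for ion channels, 394 kb for glutamate receptors, 938 kb for synaptic adhesion, 405 kb for axon guidance and 388 kb for the transcription factors. Over all genes the median density was 22.6 at 200 to 500 kb and 20.5 above 500 kb, so the transcription factors lay close to genes of like length, also when pooled, with 21.2 against 21.3. Among the transcription factors Auts2, a regulator of neuronal development, held the most shared regions, 296 or 26.8 per 100 kb, and Ebf3 the fewest, 12 or 9.44 per 100 kb. Housekeeping genes had 26.5 (6 of 8) with 61.9% of their gene body regions shared, but 5.43, below the 7.66 of all genes, with only peaks wider than 500 bp. With all peaks, a density above the median was therefore seen in genes used by all cells as well as in neuronal genes.

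**Figure D4:**
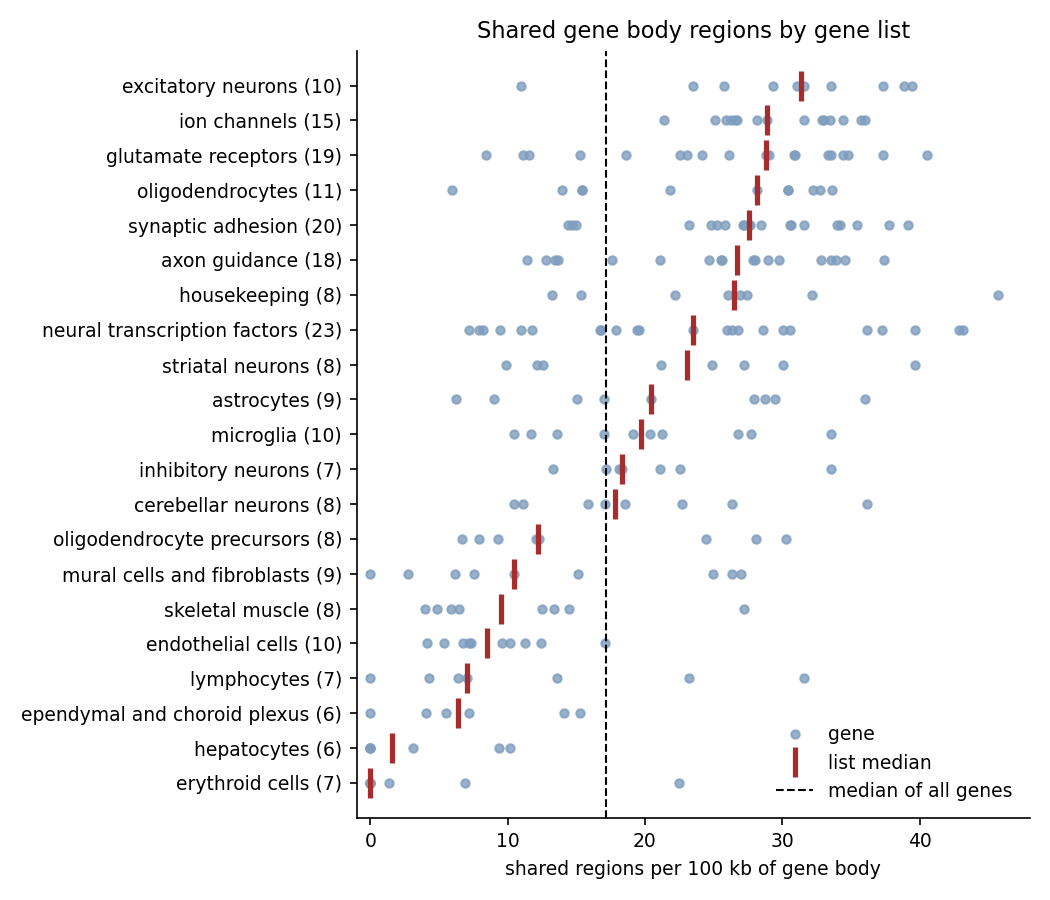
Shared regions per 100 kb of gene body (horizontal axis) for the genes of 21 lists with at least 10 kb of body beyond 1 kb from gene ends, with the number of genes in brackets. Points are genes, red bars the list medians and the dashed line the median of all such genes, 17.2; medians run from 31.3 for excitatory neurons to 0 for erythroid cells.

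Position within the gene was read in the 3694 genes of at least 50 kb whose strand the promoter table gives, none of them on chromosome 18. Shared regions were sparse next to the start, with 35.7 per Mb at 1 to 2 kb and 80.8 at 2 to 5 kb, and reached 192 at 5 to 10 kb and 217 at 10 to 20 kb. From there to 200 kb the density stayed between 212 and 214 per Mb. Beyond 500 kb, a bin that only longer genes reach, it was 192. At the end of the gene the rise was quicker, from 65.1 per Mb at 1 to 2 kb to 203 at 2 to 5 kb and 213 at 5 to 10 kb. The rule shapes the nearest bin, since a region that reaches within 1 kb of an end is left out. Shared regions of the gene ends covered 41.8% of the bases at 1 to 2 kb from the start and 27.3% at 1 to 2 kb from the end. At 2 to 5 kb they covered 5.32% and 6.32%, alike on both sides, and yet shared gene body regions covered 10.05% of the bases on the start side and 30.1% on the end side.

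**Figure D5:**
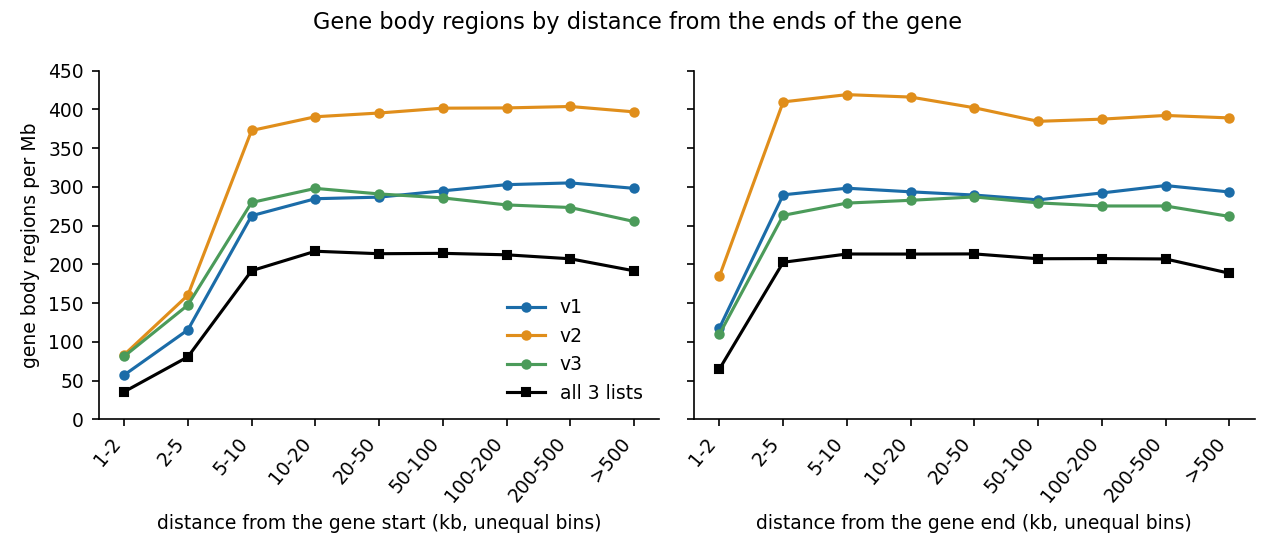
Gene body regions per Mb (vertical axis) with a peak of v1, v2 or v3 and with a peak of all 3 lists, by distance from the start (left) and the end (right) of 3694 genes, in unequal bins of kb. All 4 lines are low out to 5 kb from the start, while on the end side they are low only at 1 to 2 kb.

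Regions with a peak of each list, counted whether shared or not, had the same shape. The shared regions are part of all 3 counts, so these are not separate observations. At 2 to 5 kb from the start, regions with a v1, v2 or v3 peak numbered 116, 160 and 148 per Mb, and at 2 to 5 kb from the end 290, 409 and 263. The share of regions that were shared was also lower near the start, 36.4% at 2 to 5 kb against 48.7% at 10 to 20 kb. With each gene cut into 10 equal stretches, the density was 168 per Mb in the stretch at the start, between 209 and 213 in the next 8 and 198 in the stretch at the end. Regions with a v3 peak numbered 298 per Mb at 10 to 20 kb from the start and 255 beyond 500 kb, and those with a v1 peak 285 and 298. Counted from the end of the gene, v3 had 283 and 262 in the same bins. Only genes longer than 500 kb reach the last bin, so the bins compare different genes, and the part of gene length was not tested.

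Across chromosomes the autosomes ranged from 170.04 shared regions per Mb of eligible gene body on chromosome 7 to 229 on chromosome 16. Chromosome X had 74.6 per Mb. On X the share of gene body regions that were shared was 29.0%, against 43.3% to 49.3% on the autosomes, and the median region was 1159 bp wide against 1315 to 1404 bp. All 3 lists were low there, with 121, 216 and 123 regions per Mb for v1, v2 and v3, where the lowest autosome had 229, 327 and 240. The number of X copies per nucleus is unknown, since the labels do not give the sex of the animals.

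Other genes nested inside the gene bodies were placed by their midpoint. Shared regions held 33.5% of 3108 long non-coding RNA genes, 34.9% of 716 microRNA genes, 34.2% of 403 small nucleolar RNA genes (138), 28.2% of 1997 pseudogenes and 26.5% of 344 small nuclear RNA genes, while they covered 30.7% of the bases. Of 27 transfer RNA genes, 13 or 48.1% lay in one. The wide interval of that share, 28.7 to 68.1, held the 30.7% of bases. It also held the other shares except those of pseudogenes and small nuclear RNA genes. Within the span of the imprinted gene Rtl1, 10 of 15 microRNA hairpins lay in 6 shared regions, among them Mir127, Mir136, Mir431 and Mir433. Over all 559 hairpins the share was 37.7%. Several Rtl1 hairpins sat in the same region, so they are not separate cases, and this gene was picked after the values were seen.

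The widest shared regions were runs of several peaks. Among the widest were those in Tnrc18 with 9035 bp, Sorbs2 with 8952 bp, the presynaptic active zone gene Rims1 with 8244 bp and the forkhead factor gene Foxo3 with 8233 bp. Among those with the largest core were R3hdm1 with 5694 bp, where 86.8% of a 6557 bp region was common to the lists, Ube2d2a with 5430 bp, Plekha6 with 5304 bp and Ywhaz with 5289 bp. In Ywhaz, which encodes a 14-3-3 protein, v3 listed 1 peak of 7146 bp where v1 listed 2 and v2 listed 3.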

How the data were processed

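The authors deposited 1 peak list per library, with chromosome, start and end and no score, count or barcode (these positions were handled as another unit, in bp). They were made with ArchR and MACS2 on build mm10, per the submitters' processing notes. The aligner, the versions of the tools, the peak threshold and the depth were not given in the sources used here. Peaks were merged into union regions by overlaps of at least 1 bp (touching peaks were kept apart) and placed with RefSeq gene spans of GRCm38.p6, of which 21631 are protein-coding. Some spans at the very start of chromosome 1, such as Csprs at 111558 to 163011, held no region of any list. Whether such positions belong to the assembled chromosome was not checked, and they enter the values over all genes as genes without a shared region. Strand and internal starts came from the RefSeq promoter table, which gives a start for 17274 of these genes. The eligible body of a gene is its span less 1 kb at every protein-coding gene end, and a region in several spans (1453 shared regions) was counted for each. The work used Python 3.11.15, NumPy 2.4.6, pandas 2.3.3 and SciPy 1.17.1. Merging and counting were checked on 5 simulated sets, where 0 of 2324 regions differed from counting base by base.

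The regions and gene lists were chosen with earlier results of these data known. Named genes were the 2 with most and the 1 with fewest shared regions per list, the 10 with most of all, the 5 densest and the 5 longest without any; values are printed for those a paragraph turns on. Regions named singly were the 5 widest and the 5 with the largest core. Some genes and regions that these rules name are not reported. Arpp21, Bdnf, Dmd and the microRNA hosts were named outside or beside this rule after their values were seen. The alternatives were a common core of at least 250 bases, 5 kb from gene ends, only peaks wider than 500 bp, all genes of the table, whole regions inside the span, the shortest gene for regions in several spans, leaving out each library, and 1 added after the data were seen, the distance taken from the region midpoint. No genome sequence was used here, so exons, introns and the sequence of the regions were not analysed.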

Additional observations from a re-analysis of the deposited data

How the results depend on the processing

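The number of shared regions was 92606 when only peaks wider than 500 bp were used, and it stayed within 1.5 times the 191398 reported under the 5 other alternatives run for it (174479 to 198765). The share of gene body regions found in all lists was 43.6% with a core of at least 250 bases, 45.9% at 5 kb from gene ends, 38.4% with peaks wider than 500 bp, 43.6% with all genes of the table and 45.8% with the distance taken from the midpoint, an alternative chosen after the data were seen. With 1 library left out, the share in both others ran from 54.3% (without v1) to 63.8% (without v3), which requires fewer lists by construction. With peaks wider than 500 bp, 93.7% of the genes of at least 50 kb held a shared region. The median peak width was then 969 bp in v1, 1093 bp in v2 and 1292 bp in v3. It was 779 bp in v2 and 876 bp in v3 with the core of 250 bases, 779 and 867 bp with the midpoint distance, and 856 bp in v3 with all genes. Requiring the whole region inside the span changed nothing, by construction.

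The median of a gene list changed side of the median of all genes in few cases. At 5 kb from gene ends the inhibitory (19.2), microglial (17.1) and cerebellar (16.3) lists fell below it (19.7). With peaks wider than 500 bp the inhibitory (7.53), microglial (6.91) and housekeeping (5.43) lists fell below 7.66. With the midpoint distance the cerebellar list (17.8) fell below 18.4. The cause was not tested. No paired analysis was possible because each version has 1 library. Depth is unknown, so a missing peak cannot be told apart from too few reads, and peak height was not analysed here.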

Other observations

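Shared regions of the same gene lay close together, with a median gap of 1224 bp between neighbours (quartiles 286 and 3192 bp), and 45.4% of the gaps were under 1 kb while 4.80% were over 10 kb. The longest stretch without one had a median of 12.4 kb over the 4729 genes of at least 50 kb. On chromosome X, Dach2 had a stretch of 362 kb with no shared region, in which 9 regions had a v1 peak, 24 a v2 peak and 2 a v3 peak, and Il1rapl2 one of 243 kb with 5, 17 and 5.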
